A study of Mus musculus with 23 samples.

Results

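Cytoplasmic ribosomal protein genes encode the protein part of the ribosome. They were chosen by symbol: gene rows that start with Rpl or Rps followed by a digit, together with Rpsa, Rplp0, Rplp1 and Rplp2, without symbols that contain -ps and without the S6 kinases (Rps6k). Of 53607 gene rows, 93 symbols matched, and 92 of them reached 10 counts in at least 1 library; Rpl6l did not. By role, 46 belong to the large subunit, 31 to the small subunit, 9 are paralogs or only share the name, and 6 are annotated as processed pseudogenes (Rps12l1, Rps3a2, Rps3a3, Rpl32l, Rps4l and Rpl37rt). The low-count filter of the test let 91 of the 92 pass, all but Rpl32l.

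Total RNA of mouse embryonic stem cells, depleted of ribosomal RNA, was sequenced as 23 stranded libraries in 8 groups. All lines, controls included, are H-Ras-/- and N-Ras-/- and carry a floxed RAS allele (Raslox/lox) and Ubiq-CreERT2, a Cre recombinase under a ubiquitin promoter that 4-hydroxytamoxifen activates. The groups combine ERF wild type or ERF knockout, RAS present (no drug) or RAS deleted (4-hydroxytamoxifen for 6 days), and 2 media. 2iL holds cells in the naive state with the MEK inhibitor PD0325901, the GSK3 inhibitor CHIR99021 and LIF. FA drives cells toward epiblast-like cells for 48 hours with FGF2 (12 ng/ml) and Activin A (20 ng/ml). There were 3 libraries per group, but 2 in the FA group that has wild type ERF and RAS present, called the reference group in FA below. The drug and the deletion always went together and cannot be told apart. The labels do not say whether a line is 1 clone or whether libraries came from separate cultures, so p-values measure the spread between these libraries, which may be technical.

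A ribosome joins a small subunit, which reads the messenger RNA, to a large subunit, which forms the peptide bond. Most of its proteins are present in a single copy, and their messenger RNAs begin with a run of pyrimidines, the TOP motif, through which the kinase mTOR and the protein LARP1 control their translation. Growth factor signalling through RAS and ERK and the transcription factor MYC are known to raise ribosome production. ERF is a repressor of the ETS family, whose members bind a core of GGAA and which ERK removes from the nucleus.

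Promoter sequences show what these genes share at their start sites. RefSeq promoters (GRCm38.p6) matched 68 of the 92 genes by symbol. Each line gives 60 bases before and 20 bases from the start site, 5′ to 3′ on the gene's strand; capitals mark the ETS core CCGGAAG, on either strand, and a pyrimidine tract that begins with C at the start site. Rpl38, Rps10 and Rps21 are shown because they hold both features. Rpl26 and Rpl31 hold the ETS letters only, and Rpl15 and Rps6 the tract only. Rplp0, Rps2, Rpl12, Rpl10l and Rpl39l, on which the results below turn, hold neither in this window.
Rpl38 (chr11:114668520-114668599, plus strand): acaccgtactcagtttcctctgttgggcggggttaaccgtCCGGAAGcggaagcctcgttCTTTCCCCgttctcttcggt
Rps10 (chr17:27635225-27635304, minus strand): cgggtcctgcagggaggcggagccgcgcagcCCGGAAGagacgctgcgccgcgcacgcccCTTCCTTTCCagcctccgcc
Rps21 (chr2:180257319-180257398, plus strand): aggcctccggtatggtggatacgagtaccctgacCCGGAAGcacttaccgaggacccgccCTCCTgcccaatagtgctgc
Rpl26 (chr11:68901506-68901585, plus strand): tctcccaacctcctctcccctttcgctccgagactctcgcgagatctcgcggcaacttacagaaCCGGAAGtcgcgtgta
Rpl31 (chr1:39367791-39367870, plus strand): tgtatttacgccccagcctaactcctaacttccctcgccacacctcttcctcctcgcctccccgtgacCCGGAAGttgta
Rpl15 (chr14:18270967-18271046, minus strand): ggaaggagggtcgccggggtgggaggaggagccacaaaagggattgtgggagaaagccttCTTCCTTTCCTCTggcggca
Rps6 (chr4:86857348-86857427, minus strand): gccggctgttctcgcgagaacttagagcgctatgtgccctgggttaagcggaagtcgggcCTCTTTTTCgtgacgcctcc
Rplp0 (chr5:115559407-115559486, plus strand): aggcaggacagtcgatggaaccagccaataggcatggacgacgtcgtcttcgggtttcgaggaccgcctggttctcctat
Rps2 (chr17:24720003-24720082, plus strand): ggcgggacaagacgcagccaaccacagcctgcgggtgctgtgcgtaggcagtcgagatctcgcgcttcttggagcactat
Rpl12 (chr2:32961652-32961731, plus strand): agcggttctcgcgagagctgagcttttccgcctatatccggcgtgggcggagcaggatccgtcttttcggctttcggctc
Rpl10l (chr12:66284382-66284461, minus strand): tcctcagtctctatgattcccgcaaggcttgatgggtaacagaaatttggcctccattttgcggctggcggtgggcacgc
Rpl39l (chr16:10170168-10170247, plus strand): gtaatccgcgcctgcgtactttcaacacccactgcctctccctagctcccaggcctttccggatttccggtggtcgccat

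In the whole promoter window, 250 bases before to 50 after the start site, the ETS letters stood in 26 of the 68 promoters (38.2%), against 9.93% of 27025 promoters and 17.3% of the 12852 promoters of tested genes. The pyrimidine start, a C followed by at least 4 bases that are each C or T on the sense strand, stood in 15 of 68 (22.1%), against 3.01% of all promoters and 3.00% of those of tested genes. It was read at annotated starts only, so a gene whose messenger RNAs start a few bases away is missed. AAGATGG, the YY1 type motif, was found in 14.7% against 7.91% of tested genes. GGGCGG (SP1 type) was found in 60.3% against 63.6%, CACGTG (E-box) in 8.82% against 11.1% and TATAAA in 11.8% against 9.73%. All but the tract were searched on both strands, and no motif contains another.

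Library facts that touch the results come first. Libraries held 16.2 to 29.9 M counts, of which ribosomal protein genes took 2.78 to 3.75%. Erf did not mark the libraries labelled ERF knockout: with RAS present in 2iL it stood at 116 ± 17.5 CPM (SD, n = 3) in them, against 77.6 ± 7.66 CPM (SD, n = 3) in wild type libraries, and in FA at 57.5 ± 7.06 CPM (SD, n = 3) against 63.1 ± 9.41 CPM (SD, n = 2). With RAS deleted it was 129.8 to 172 CPM against 83.0 to 90.2 CPM in 2iL and 60.6 ± 9.91 against 69.7 ± 4.12 CPM in FA (SD, n = 3 each), so it was higher under the knockout label in 2iL and lower in FA, where the ranges overlapped. The ERF genotype is therefore given as labelled. Replicate 1 of all 4 ERF wild type groups stood apart on chromosome 8: its 582 tested genes lay 0.30 to 0.35 (log2) above the other replicates, relative to all genes. Rpl13 lies on that chromosome. On chromosome 11, replicate 1 of the libraries labelled ERF knockout lay 0.08 to 0.17 above. Counts of calls are given with all libraries and, where they move, without replicate 1 of the ERF wild type groups, an alternative chosen after seeing the data that leaves 1 library in the reference group in FA.

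Several of these genes have near-identical copies, so how reads were divided matters. A total of 7 genes have under 25% of their 31-base words to themselves, and 46 have at least 75%. Among 286 rows marked -ps, 65 had at least 10 counts in a library, and together these rows held 0.326 to 0.445% of counts. For 5 genes most reads of gene and copies lay in -ps rows: 93.9% for Rps13, 90.5% for Rps12, 84.3% for Rpl10, 83.3% for Rpl3 and 63.9% for Rps23. Over the 12 comparisons and 3 interactions, adding those rows changed the call, or the direction of a call, in 22 of 75 cases for these genes, so their own calls are uncertain. Rps23, which was not called for RAS deletion in FA, was called lower there with the rows added, by 0.21 with ERF wild type and 0.26 with ERF labelled knockout (edgeR adjusted p 0.0486 and 0.0162).

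Levels between genes were compared as deposited TPM, which is per length. Rpl41, the shortest ribosomal protein, stood highest with a mean of 1888 TPM over the 23 libraries (1595 to 2345), followed by Rplp1, a protein of the stalk that recruits elongation factors, with 1668 TPM, and Rpl23a, which lies at the tunnel exit, with 1505 TPM. Rpl32l (1.01 TPM), Rpl3l (1.07 TPM) and Rps12l1 (6.65 TPM) stood lowest. Rpl3l is the muscle form of Rpl3.

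The first question was what RAS deletion does to these genes while cells are driven out of the naive state. In FA with ERF wild type, 69 of 91 ribosomal protein genes (75.8%) fell with RAS deleted and 3 rose, by edgeR's quasi-likelihood test at a Benjamini-Hochberg adjusted p under 0.05. Of all 20372 tested genes, 21.5% fell and 19.8% rose. The median gene was lower by 21.8%, a log2 difference of -0.35 (quartiles -0.44 and -0.24), so the shift was small per gene and wide over the group; 1 gene passed the second call, which asks for at least 2-fold, against 17.3% of all genes. Among the 3299 genes of at least 50 CPM, 28.4% fell and their median was -0.01.

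Rplp0, at the base of the stalk that recruits translation factors, was among the 3 largest called falls. It stood at 996 and 1096 CPM in the reference libraries in FA and at 686, 607 and 643 CPM with RAS deleted, with no overlap. The log2 difference was -0.70 (SE 0.08, adjusted p 1.63e-07 by edgeR's quasi-likelihood test). Rpl22l1, a paralog that can stand in for Rpl22, stood at 46.5 and 48.0 CPM against 30.9, 30.6 and 26.0 CPM, a difference of -0.70 (SE 0.13, edgeR adjusted p 0.00023). Rps13, a small-subunit protein near the bridge between the subunits, fell by 0.75 on the log2 scale (SE 0.15, edgeR adjusted p 0.000224), and by 0.42 with its pseudogene rows added. In Rplp0 and Rpl22l1 every RAS-deleted library lay below both reference libraries.

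In cells labelled ERF knockout, RAS deletion in FA lowered 43 of 91 genes (47.3%) and raised 3; of all genes, 13.7% fell and 12.7% rose. The median difference was -0.22 (quartiles -0.30 and -0.12), a loss of 14.1%, and no gene reached 2-fold, against 6.88% of all genes. Among genes of at least 50 CPM only 11.9% fell and 26.2% rose. Rpl12, of the stalk base, stood at 76.0, 81.2 and 82.0 CPM with RAS present and at 56.1, 58.2 and 54.0 CPM with RAS deleted, a difference of -0.51 (SE 0.10, adjusted p 0.000746 by edgeR's quasi-likelihood test). Rpl39, a small protein of the exit tunnel, fell from 192, 216 and 173 CPM to 121, 143 and 152 CPM (-0.48, SE 0.10, edgeR adjusted p 0.000849). Rpl26, which also contacts the exit tunnel, fell from 587, 592 and 505 CPM to 406, 416 and 424 CPM (-0.43, SE 0.08, edgeR adjusted p 0.00049). In all 3 genes the groups were apart, with the RAS-deleted libraries low.

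**Figure D1:**
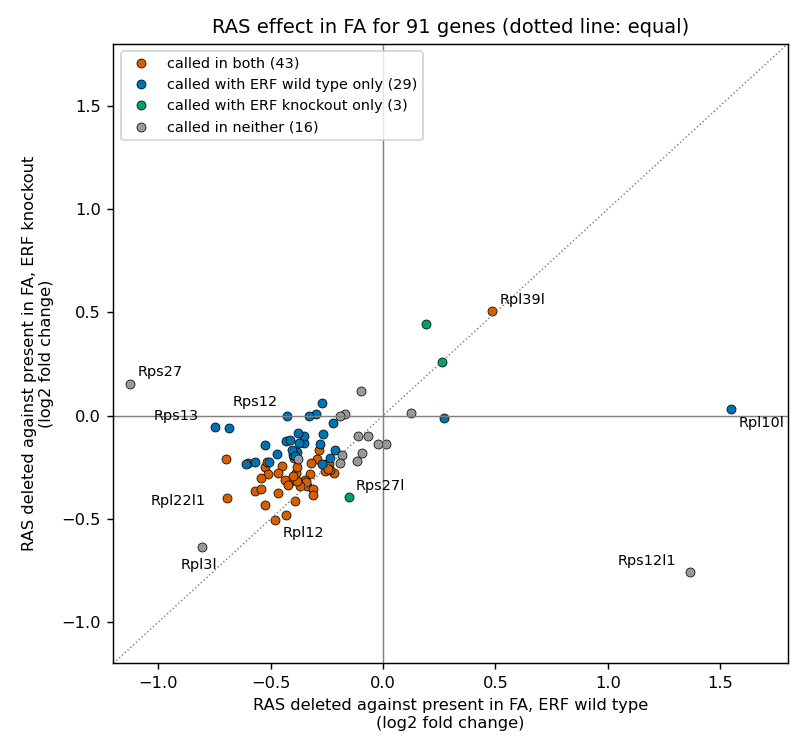
RAS deleted minus present in FA (log2 difference) for 91 ribosomal protein genes, with ERF wild type on the horizontal axis and ERF labelled knockout on the vertical axis; colours give the comparisons in which a gene was called. Most points lie below 0 on both axes, 43 genes were called in both comparisons, 29 with ERF wild type only, 3 with ERF knockout only and 16 in neither.

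These 2 comparisons share no library. Of the genes that fell, 42 were the same, 60.9% of the 69 with ERF wild type and 97.7% of the 43 with ERF knockout. Over all tested genes 1269 fell in both, 29.0% and 45.6% of those that fell in each. More of the 91 fell in each comparison, 75.8% and 47.3% against 21.5% and 13.7% of all genes, which by itself raises the overlap. Across the 91 genes, Spearman's rho between the differences was 0.36, as a description; the genes share their libraries and depth. Rpl37a, a zinc-finger protein of the large subunit, rose with ERF labelled knockout, from 209, 241 and 211 CPM to 296, 334 and 269 CPM (0.44, SE 0.09, adjusted p 0.000742 by edgeR's quasi-likelihood test). With ERF wild type it differed by 0.19 and was not called (SE 0.10, edgeR adjusted p 0.127).

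Both counts rest on few libraries. In ERF wild type cells 72 calls became 35 (33 lower) and the median -0.23 without replicate 2 of the reference group in FA, and 37 (36 lower) in a fit of the compared groups only; without the chromosome 8 libraries 70 were called, 69 lower. In the other line 46 calls became 25 without replicate 1 of the RAS-deleted group or without replicate 2 of the RAS-present group, with 24 and 23 lower.

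Library by library, the median of the 91 genes was set against the reference mean in 2iL. For ERF wild type in FA it was -0.13 and 0.00 with RAS present and -0.34, -0.47 and -0.46 with RAS deleted. For ERF labelled knockout in FA it was -0.04, 0.04 and -0.07 with RAS present and -0.31, -0.18 and -0.19 with RAS deleted. The 6 RAS-deleted libraries in FA were thus the lowest of all 23, since the 2iL libraries ran from -0.12 to 0.18.

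**Figure D2:**
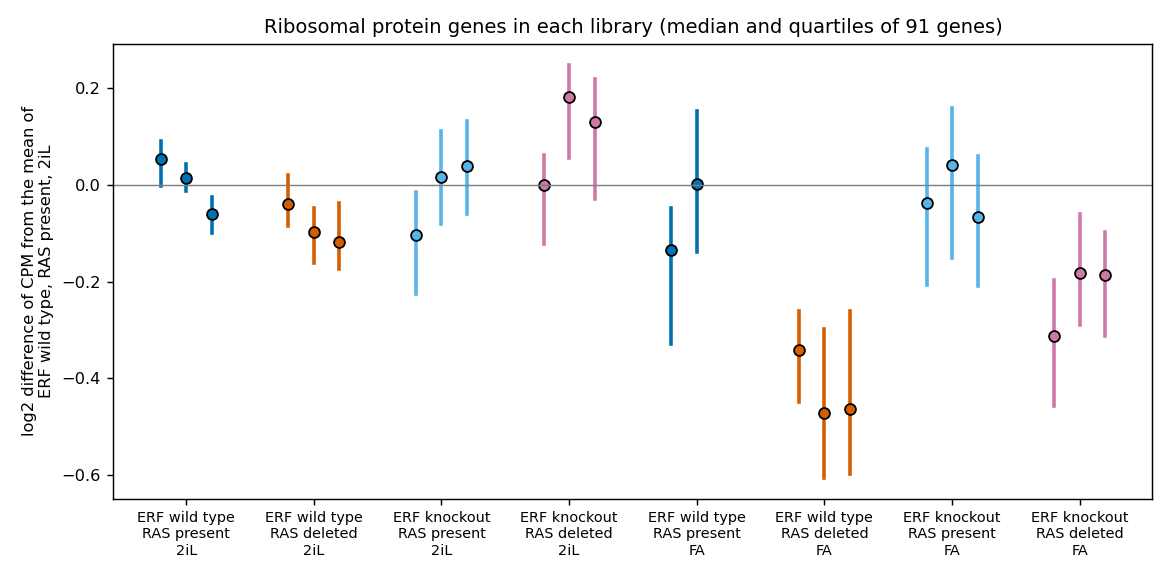
Median (point) and quartiles (bar) over 91 ribosomal protein genes of the log2 difference from the mean of the ERF wild type, RAS present libraries in 2iL, for each of the 23 libraries by group. The 3 RAS-deleted FA libraries with ERF wild type sit between -0.47 and -0.34 and those labelled ERF knockout between -0.31 and -0.18, below every other library.

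The summed level depends on what it is a share of. Of the TPM of protein-coding genes, ribosomal protein genes took 17.2 ± 0.873% (SD, n = 2) in the reference group in FA and 14.3 ± 0.421% (SD, n = 3) with RAS deleted, and 18.8 ± 0.697% and 16.1 ± 0.357% (SD, n = 3 each) with ERF labelled knockout. The 2iL libraries ran from 17.04 to 18.95%. Of all deposited TPM, noncoding rows included, the share fell with ERF wild type in FA, from 6.34 ± 0.0912% (SD, n = 2) to 5.47 ± 0.160% (SD, n = 3), while with ERF knockout it was 6.10 ± 0.105% and 6.08 ± 0.165% (SD, n = 3 each). There protein-coding genes held 31.8% of TPM with RAS present and 36.9% with RAS deleted. In bulk RNA, fewer cells of a type and less of an RNA per cell cannot be told apart.

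Markers of cell state moved with the fall in ERF wild type cells. The summed level of 6 embryonic stem cell markers was 606 to 639 CPM in the reference libraries in FA and 1476 to 2075 CPM with RAS deleted, between these and the 2089 to 2463 CPM of 2iL. The 4 epiblast-like markers stood at 548 to 619 CPM and 102 to 291 CPM. Under the ERF knockout label the stem cell markers in FA were 538 to 639 CPM and 605 to 630 CPM, and the epiblast-like markers 343 to 401 CPM and 462 to 487 CPM. The 5 primitive endoderm markers were lower in FA with RAS deleted, from 42.1 to 80.4 CPM down to 8.02 to 10.5 CPM with ERF wild type and from 46.8 to 55.9 CPM down to 11.1 to 20.2 CPM with ERF knockout. The 5 trophoblast markers summed to 13.4 to 35.8 CPM over all groups, and the 5 feeder fibroblast markers to at most 5.57 CPM, with 1 to 3 of them at 0 in every library of a group. The part of these markers in the result was not tested.

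The next question was how the genes change between the media. In the reference line, with wild type ERF and RAS present, the change from 2iL to FA was mixed: 5 of 91 genes rose and 21 fell, against 25.4% and 24.1% of all genes, with a median of -0.05. In cells labelled ERF knockout with RAS present, 6 rose and 10 fell, against 24.6% and 22.3%, with a median of -0.01. In the reference line 9 rose and 10 fell without the chromosome 8 libraries, 15 and 17 genes were called without replicate 1 of the FA group or replicate 2 of the 2iL group, and a fit of the compared groups only called 13, all lower. Without replicate 2 of its FA group the median was -0.16. On total counts the splits were 9 higher and 18 lower in the reference line and 16 higher and 8 lower with ERF labelled knockout. In the line labelled ERF knockout, where same-numbered libraries deviated together, a fit with the replicate number as a block called 33 genes, 13 higher and 20 lower. For that fit the share of all genes is not given.

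With RAS deleted the same change of medium lowered most of them. In ERF wild type cells 67 of 91 (73.6%) fell and 1 rose, against 21.4% and 21.6% of all genes, with a median of -0.35, or 21.7% lower. In cells labelled ERF knockout 65 fell and 3 rose, against 27.4% and 28.3%, with a median of -0.31, or 19.6% lower. Of the genes that fell, 56 did so in both lines, 83.6% and 86.2% of each, against 68.2% and 53.2% over all tested genes. The larger share of the 91 that fell in each line raises these overlaps by itself. The second call, with 2-fold, held 1, 0, 0 and 2 of the 91 genes in the reference line, with RAS deleted, with ERF knockout and with both, against 24%, 16.5%, 19.7% and 24.9% of all genes. On total counts in place of TMM the last comparison had 37 lower and 7 higher, and the median of all genes moved up by 0.19; relative to all genes the ribosomal protein median was then -0.35.

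Rps2, at the entry channel of the small subunit, fell in all 4 medium comparisons. With RAS deleted and ERF wild type it went from 1211, 1201 and 1190 CPM in 2iL to 800, 653 and 614 CPM in FA, a log2 difference of -0.80 (SE 0.10, adjusted p 4.68e-07 by edgeR's quasi-likelihood test). In the libraries labelled ERF knockout with RAS deleted it went from 1551, 1790 and 1692 CPM to 872, 935 and 811 CPM (-0.94, SE 0.10, edgeR adjusted p 1.71e-08). With RAS present the differences were -0.44 in both lines, and the ranges were apart in every case.

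Rpl12 was the large-subunit gene with the widest swings. In the reference line it went from 138, 101 and 90.5 CPM in 2iL to 72.5 and 66.8 CPM in FA, a log2 difference of -0.66 (SE 0.11, adjusted p 4.01e-05 by edgeR's quasi-likelihood test). With RAS deleted and ERF labelled knockout it went from 133, 156 and 146 CPM to 56.1, 58.2 and 54.0 CPM, a difference of -1.37 (SE 0.10, edgeR adjusted p 9.78e-11) and, beside that of Rpl10l, the only called fall beyond 2-fold in this comparison. The same change of medium gave -0.73 with RAS deleted and ERF wild type and -0.60 with RAS present and ERF labelled knockout. Within each of the 4 lines every FA library lay below every 2iL library for this gene.

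Rpl36a fell with the medium in all 4 lines: in ERF wild type cells by 0.50 on the log2 scale with RAS present and by 0.69 with RAS deleted (SE 0.11 and 0.10, adjusted p 0.000437 and 3.79e-06 by edgeR's quasi-likelihood test), and with ERF labelled knockout by 0.35 and 0.41 (SE 0.09 each, edgeR adjusted p 0.00422 and 0.000691). The first of these was -0.31 with its pseudogene rows added. Rpl37a fell with ERF labelled knockout and RAS present, by 0.55 (SE 0.09, edgeR adjusted p 1.95e-05). Rpl13, on chromosome 8, fell with RAS deleted, by 0.53 with ERF wild type and by 0.62 with ERF labelled knockout (SE 0.17 each, edgeR adjusted p 0.0163 and 0.00444). The former call was lost at -0.34 without replicate 1 of the 2iL group and at -0.45 and -0.43 without replicate 2 or 3 of the FA group.

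A few genes rose in FA with RAS present. Rps12, of the small-subunit beak, went from 62.0, 68.7 and 64.3 CPM to 84.0 and 72.3 CPM in the reference line (0.27, SE 0.10, adjusted p 0.0276 by edgeR's quasi-likelihood test), a call that was lost at 0.10 without the chromosome 8 libraries, at 0.14 without replicate 1 of the FA group, and without replicate 1 or 3 of the 2iL group. Under the ERF knockout label it rose by 0.46 (SE 0.09, edgeR adjusted p 0.000188). With RAS deleted it fell by 0.41 with ERF wild type and rose by 0.30 with ERF labelled knockout (SE 0.09 each, edgeR adjusted p 0.000799 and 0.00667), and with its pseudogene rows added neither was called, at -0.13 and 0.14 (edgeR adjusted p 0.131 and 0.0986). Rpl27 (0.28, SE 0.10) and Rpl34 (0.29, SE 0.07), both of the large subunit, rose in the reference line and with ERF knockout, in that order. The call of Rpl27 was lost without either FA library or without replicate 2 of the 2iL group (0.23 to 0.30).

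**Figure D3:**
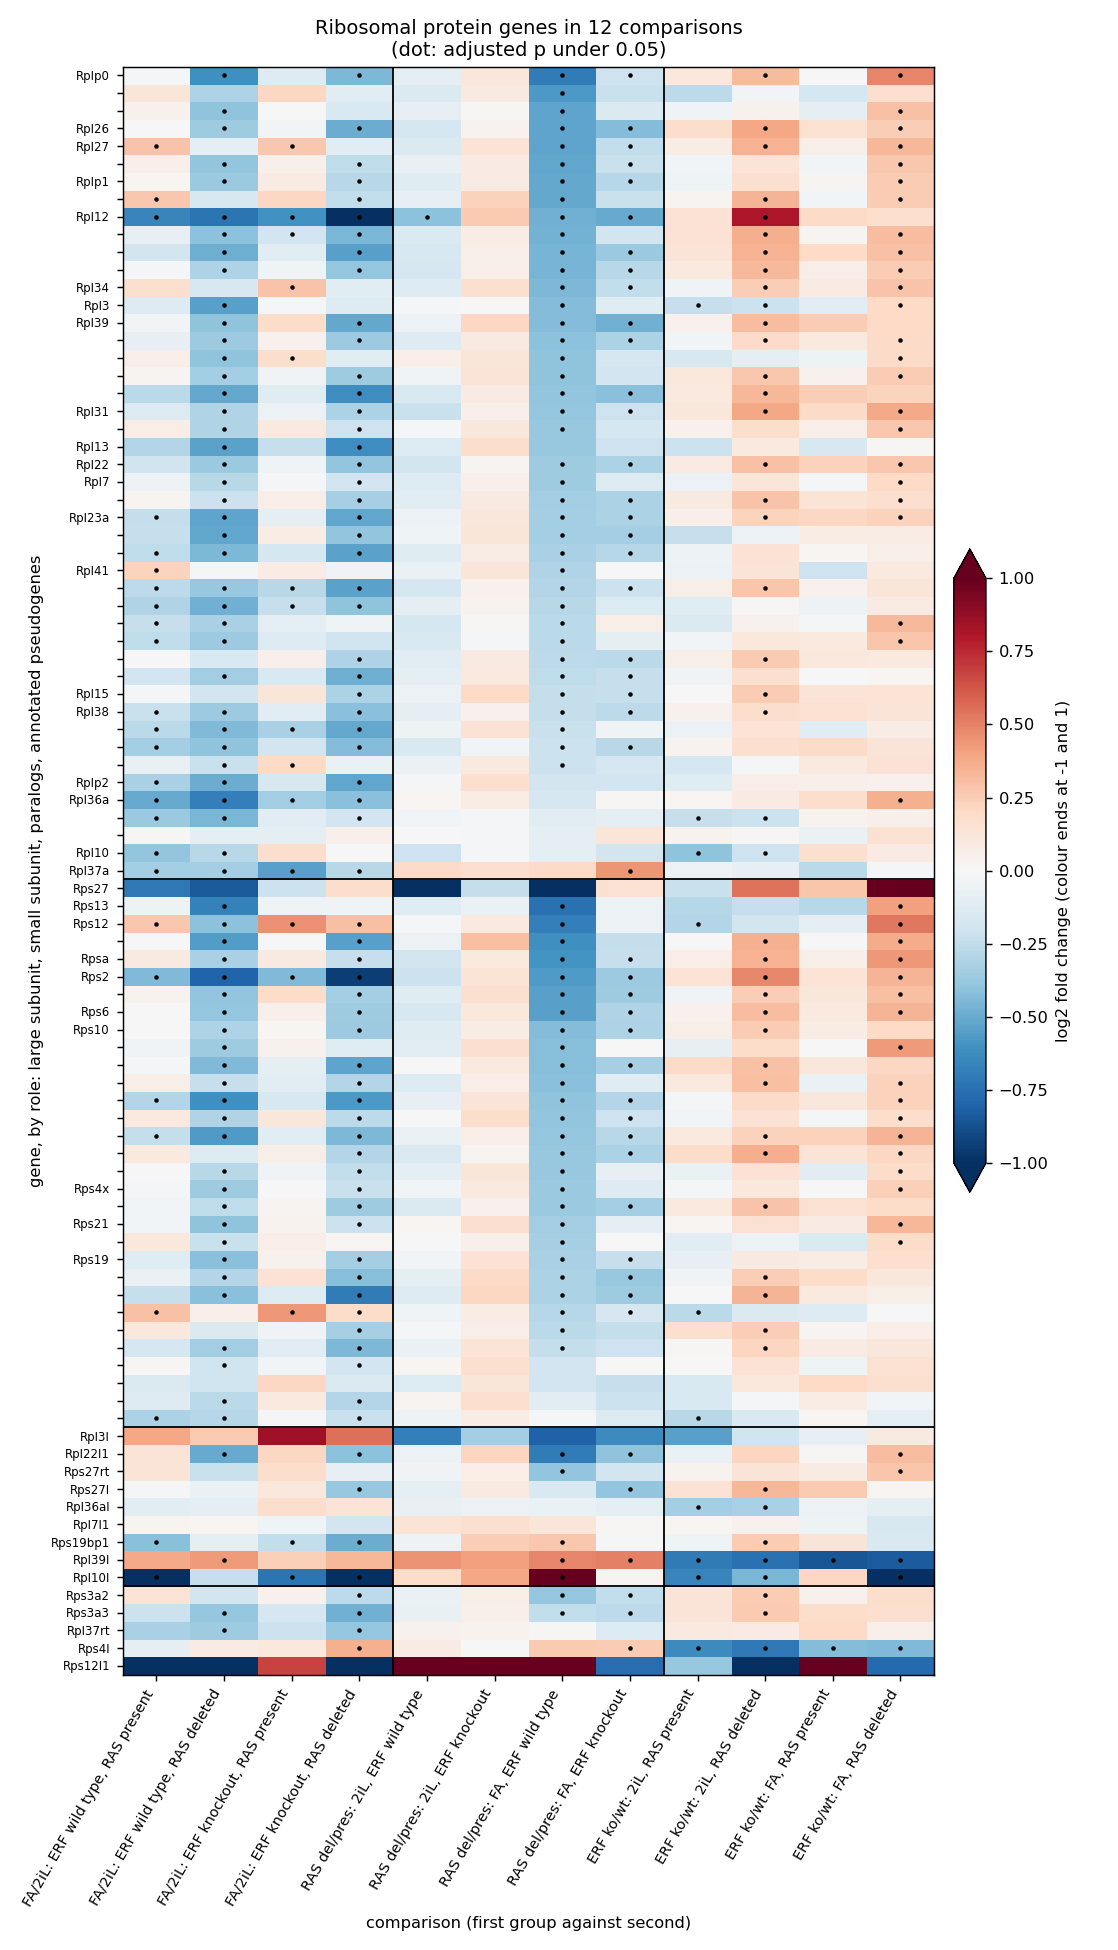
Log2 differences of 91 ribosomal protein genes (rows) in the 12 main comparisons (columns), with a dot where the gene was called and a name beside genes described in the text; the colour scale ends at -1 and 1. The 4 columns that set RAS-deleted FA libraries against 2iL or against RAS present hold mostly falls, with 67 and 65 genes lower against 2iL and 69 and 43 lower against RAS present, while the RAS columns in 2iL hold 1 dot in all.

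Over the 4 comparisons of RAS-deleted FA libraries with RAS-present FA or RAS-deleted 2iL libraries, 35 of 91 genes fell in every one and 9 in none, against 2.00% and 49.8% of all genes. These comparisons share the RAS-deleted FA libraries of each line. In each of them more of the 91 genes than of all genes fell, which by itself raises the first share.

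In 2iL, where the MEK inhibitor is present, RAS deletion moved few genes of any kind in the main fit, which leaves replicate numbers out. With ERF wild type 1 of 91 fell and none rose, against 3.15% and 2.55% of all genes, and 14 had an unadjusted p under 0.05; DESeq2 called 2. That gene was Rpl12, from 138, 101 and 90.5 CPM to 84.7, 84.8 and 78.8 CPM (-0.41, SE 0.10, adjusted p 0.0178 by edgeR's quasi-likelihood test). Leaving out replicate 1 of the RAS-present group ended the call at -0.21, and so did leaving out replicate 2 or 3 of the RAS-deleted group, at -0.43 and -0.38. Same-numbered libraries deviated together here, and with the replicate number as a block 12 genes were called, 2 higher and 10 lower. The shares of all genes above are from the fit without the block, and those with it are not given.

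In cells labelled ERF knockout, edgeR's quasi-likelihood test called 0 of 91 genes for RAS in 2iL, against 0.677% of all genes higher and 0.628% lower. The median was 0.09, 13 genes had an unadjusted p under 0.05, and DESeq2 called 1. With the replicate number as a block 27 were called, all higher. The share of all genes called with the block is not given, so this count has no reference value. At 2-fold no ribosomal protein gene was called in either 2iL comparison, against 1.2% and 0.211% of all genes.

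The third question was what the ERF label does. With RAS present it moved few ribosomal protein genes: in 2iL none rose and 10 fell, against 13.3% and 14.6% of all genes, and in FA none rose and 2 fell, against 4.37% and 5.4%. The medians were -0.02 and 0.06. In 2iL, 6 rose and 10 fell without the chromosome 8 libraries. In FA the 2 genes were Rpl39l and Rps4l; without replicate 2 of the reference group 6 rose and none fell, 4 were called without replicate 3 of the group labelled ERF knockout, and 1 without replicate 1 of the reference group or replicate 2 of the other.

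In both media, RAS-deleted libraries labelled ERF knockout had more of these genes called higher than lower on the CPM scale. In 2iL 40 of 91 genes (44.0%) rose and 7 fell, against 19.2% and 19.9% of all genes, with a median of 0.16, or 11.8%. In FA 43 (47.3%) rose and 3 fell, against 21.6% and 21.3%, with a median of 0.18, or 13.4%. At 2-fold the 4 ERF comparisons held 0, 0, 0 and 1 of the 91 genes, against 9.72%, 13%, 2.36% and 16.6% of all genes (2iL with RAS present and deleted, then FA with RAS present and deleted). In 2iL on total counts 25 rose and 12 fell. The summed share of protein-coding TPM there was 17.4 ± 0.444% with ERF wild type and 18.2 ± 0.780% with ERF labelled knockout, but the share of all TPM went the other way, 6.36 ± 0.0969% and 6.02 ± 0.199% (SD, n = 3 each). In FA both shares were higher under the knockout label, at 16.1 ± 0.357% against 14.3 ± 0.421% of protein-coding TPM and 6.08 ± 0.165% against 5.47 ± 0.160% of all TPM (SD, n = 3 each).

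Single libraries moved these counts too. In 2iL, 47 calls became 30 (23 higher) without replicate 2 of the RAS-deleted group labelled ERF knockout. In FA, 46 became 26 without replicate 2 of the ERF wild type group and 27 without replicate 2 of the other, with 23 and 24 higher, and 28 in a fit of the compared groups only. Without the chromosome 8 libraries 49 rose in 2iL and 53 in FA.

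Rpl12 again led the called genes in 2iL: it stood at 84.7, 84.8 and 78.8 CPM with ERF wild type and at 133, 156 and 146 CPM with ERF labelled knockout (0.81, SE 0.10, adjusted p 1.16e-06 by edgeR's quasi-likelihood test). Rps2 (0.48, SE 0.10) and Rpl31, at the exit tunnel (0.39, SE 0.07), followed. In FA the largest called rises were those of Rps12 (0.52, SE 0.09), Rplp0 (0.49, SE 0.07) and Rpsa, a small-subunit protein also known as the laminin receptor (0.43, SE 0.08). With its pseudogene rows added Rps12 rose by 0.37. For Rplp0 the libraries labelled ERF knockout with RAS deleted stood at 898, 962 and 851 CPM, between the 607 to 686 CPM of ERF wild type and the 996 and 1096 CPM of the reference group in FA.

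The interaction asks whether the RAS effect in FA differs with the ERF label. It passed for 12 of 91 genes, 11 with a higher RAS effect under the ERF knockout label and 1 with a lower one, against 14.4% and 13.6% of all genes, and the median was 0.12. The 11 were 12.1% of the 91, no more than the share of all genes. At 2-fold the interaction called 1 gene, against 13.7%. Without the chromosome 8 libraries it called 26, 25 of them higher. It called 6 without replicate 2 of the reference group in FA or of the RAS-deleted group labelled ERF knockout, 7 without replicate 2 of the RAS-deleted ERF wild type group, and 4 in a fit of its 4 groups. Without replicate 2 of the reference group in FA the median was -0.01. A difference in the RAS effect between the ERF labels was therefore called for few single genes, although 69 and 43 genes passed in the separate comparisons.

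Among called genes Rps13 and Rps12 had the largest positive interactions, 0.69 (SE 0.20, adjusted p 0.0101 by edgeR's quasi-likelihood test) and 0.62 (SE 0.13, edgeR adjusted p 0.00104). With pseudogene rows added that of Rps13 was 0.27 and no longer called (edgeR adjusted p 0.0625), nor was it without replicate 1 of the reference group in FA, at 0.50, and that of Rps12 was 0.34. Rpl10l had the only called negative one, -1.52 (SE 0.17, edgeR adjusted p 3.63e-07).

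The RAS effect also differed between media in ERF wild type cells. This interaction called 26 genes, 25 lower (27.5%) and 1 higher, against 11.7% and 12.8% of all genes, with a median of -0.24. At 2-fold it called 1 gene, against 11.9%. A fit of its own groups only, with or without the replicate block, also called fewer, as given with the processing below. Without the chromosome 8 libraries 46 were called, 45 lower; without replicate 2 of the reference group in FA 6 were called, 5 lower, with a median of -0.14. With RAS deleted, the medium effect differed with the ERF label for 7 genes, 4 higher and 3 lower, against 12.6% and 13.8% of all genes, with 0 at 2-fold against 11.3%. On total counts it called 11 higher and 2 lower. Without replicate 1 of the ERF wild type, RAS-deleted FA group 12 were called. The fall from 2iL to FA with RAS deleted had medians of -0.35 and -0.31 under the ERF labels, and the median of this interaction was 0.01.

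By subunit, RAS deletion in FA lowered 39 of 46 large-subunit and 26 of 31 small-subunit genes with ERF wild type, with medians of -0.35 and -0.38, where 21.5% of all genes fell. In cells labelled ERF knockout it lowered 24 and 15, with medians of -0.22 and -0.23, where 13.7% of all genes fell. The subunits were not tested against each other. Among the 46 genes with at least 75% of their 31-base words to themselves, 34 fell with ERF wild type and 21 with ERF knockout. Their medians were -0.35 and -0.21. Reads can be misplaced in this set too. Rps13 has 77.5% of its words to itself, yet 93.9% of the reads of gene and copies lay in -ps rows. The 30 genes that hold snoRNA genes in their introns (58 in all) and the 61 that do not had medians of -0.38 and -0.35 with ERF wild type. Of 3 ribosomal proteins that the symbol rule misses, 2 fell with ERF wild type and 1 with ERF labelled knockout. Rack1, a scaffold protein of the small subunit, fell in both lines (-0.49 and -0.26), and Fau, a fusion of a ubiquitin-like protein with a small-subunit protein, differed by -0.17 and 0.03 and was not called. The 57 tested -ps rows had medians of -0.35 and -0.23.

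The paralogs were mixed. Of the 9 tested paralogs and name-alikes, 3 rose (Rpl10l, Rpl39l and the name-alike Rps19bp1) and 2 fell (Rpl22l1 and Rps27rt) with RAS deleted in FA and ERF wild type, beside 19.8% and 21.5% of all genes. Rpl10l, an intronless copy of Rpl10 known from the male germ line, took the widest range. In the reference line it stood at 88.3, 98.6 and 92.7 CPM in 2iL and at 28.1 and 33.7 CPM in FA, a log2 difference of -1.60 (SE 0.13, adjusted p 4.39e-10 by edgeR's quasi-likelihood test). With RAS deleted and ERF wild type it stayed high in FA, at 110, 82.5 and 78.7 CPM, which is 1.55 above RAS present (SE 0.13, edgeR adjusted p 1.29e-09). In 2iL it was already lower under the ERF knockout label. The differences there were -0.66 with RAS present and -0.46 with RAS deleted (SE 0.11 each, edgeR adjusted p 6.12e-05 and 0.0015). In the libraries labelled ERF knockout it was low in FA with RAS present (38.1, 37.1 and 31.2 CPM) and with RAS deleted (36.5, 33.4 and 38.9 CPM). The FA libraries of ERF wild type with RAS deleted were thus the ones at the 2iL level of the reference line. They stood 1.31 above those labelled ERF knockout with RAS deleted (SE 0.11, edgeR adjusted p 1.35e-09). Rpl10l made up 41.9% of the TPM of the pair Rpl10l and Rpl10 in the reference line in 2iL, 24.5% in FA, and 49.4% in FA with RAS deleted. Reads of Rpl10 itself lie mostly in -ps rows, and its own fall in the reference line, -0.40 (SE 0.09, edgeR adjusted p 0.000746), became a rise of 0.19 with those rows added.

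Rpl39l, a testis form of Rpl39, followed the ERF label in every condition. It was lower in the libraries labelled ERF knockout by 0.71 and 0.74 in 2iL and by 0.85 and 0.84 in FA, with RAS present and deleted in that order (SE 0.16 to 0.18; adjusted p 0.00331, 0.00122, 0.00531 and 0.000213 by edgeR's quasi-likelihood test); the call in FA with RAS present was lost without replicate 2 of the reference group, at -0.47. In FA it rose with RAS deleted, from 24.03 and 38.4 CPM to 44.5, 44.3 and 41.8 CPM with ERF wild type and from 18.9, 20.8 and 12.0 CPM to 24.3, 22.9 and 26.1 CPM with ERF labelled knockout. Both differences, 0.49 and 0.50 (SE 0.18 and 0.16), were called (edgeR adjusted p 0.033 and 0.0266), and the first was lost at 0.20 without replicate 1 of the reference group and at 0.47 and 0.48 without replicate 1 or 2 of the RAS-deleted group. The second was lost at 0.30 when replicate 3 with RAS present was left out and at 0.50 and 0.45 without replicate 1 or 3 of the RAS-deleted group. Against Rpl39, which fell, its part of the pair's TPM went from 12.0% to 20.7% and from 5.88% to 11.3%.

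**Figure D4:**
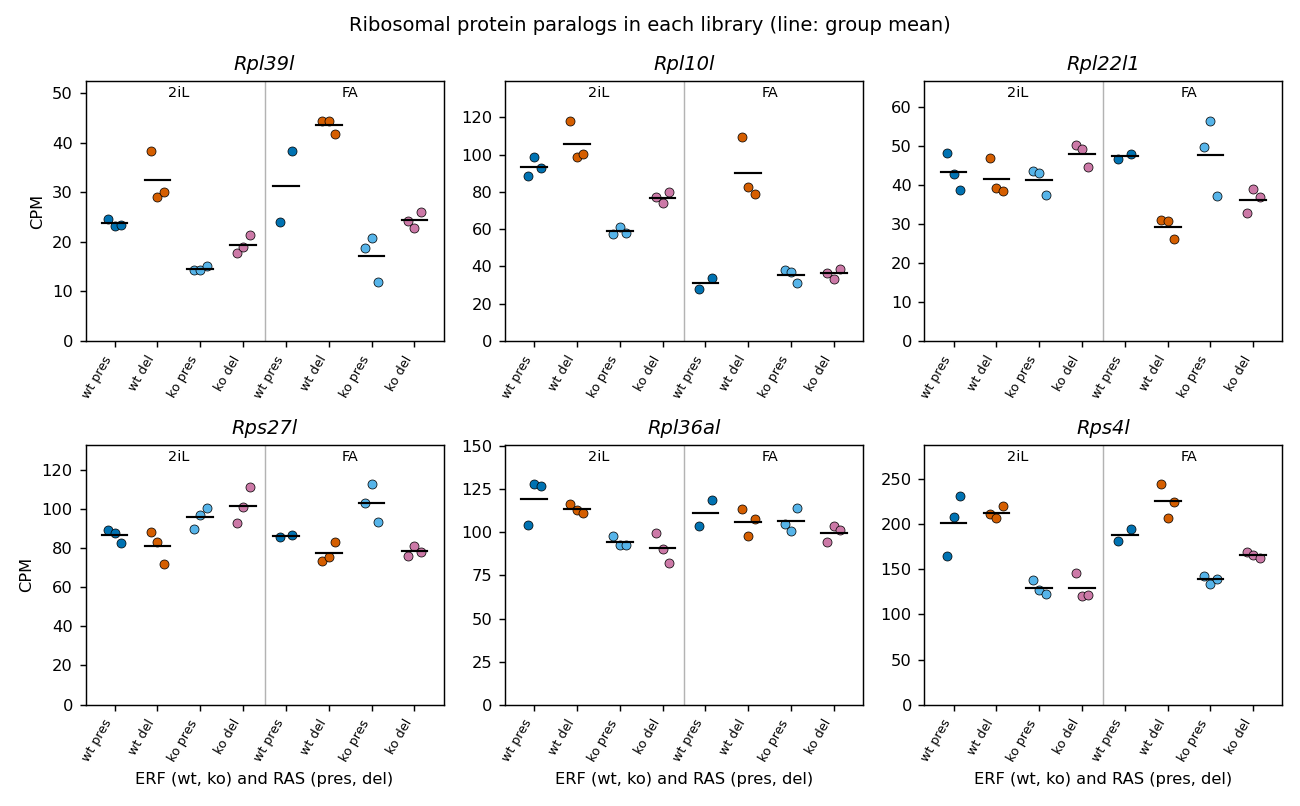
CPM per library of Rpl39l, Rpl10l, Rpl22l1, Rps27l, Rpl36al and Rps4l in the 8 groups, 1 panel per gene, each point a library. Rpl10l lies between 78.7 and 110 CPM in the RAS-deleted FA libraries with ERF wild type and between 28.1 and 38.9 CPM in the other FA libraries, and Rpl39l is lower in each group labelled ERF knockout than in its ERF wild type counterpart.

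Rps4l, annotated as a processed pseudogene of Rps4x, was also lower in the libraries labelled ERF knockout, by 0.64 and 0.72 in 2iL and by 0.44 in FA in both RAS states (SE 0.09 to 0.11; adjusted p 2.67e-05, 3.29e-06, 0.0112 and 0.000577 by edgeR's quasi-likelihood test). The call in FA with RAS present was lost without either reference library or without replicate 2 of the other group, at -0.46 to -0.37. Rps27l, a p53 target that resembles Rps27, fell with RAS deleted in FA with ERF labelled knockout, from 103, 112 and 93.1 CPM to 75.9, 80.8 and 77.9 CPM (-0.39, SE 0.08, edgeR adjusted p 0.00119). Rpl36al, an intronless copy of Rpl36a, was lower with ERF labelled knockout in 2iL, by 0.34 and 0.32 (SE 0.08 each). Rps19bp1, which binds Rps19 and the deacetylase Sirt1 and is no part of the ribosome, rose with RAS deleted in FA with ERF wild type (0.27, SE 0.10, edgeR adjusted p 0.0359), a call lost without any 1 of 4 of the 5 libraries (0.22 to 0.29). Rpl7l1, a nucleolar relative of Rpl7, and Rpl3l were called in none of the 12 comparisons. Of the pair Rps27rt and Rps27 the former, a retrocopy, took 96.8 to 99.3% of the TPM, but Rps27rt has 7.27% of its 31-base words to itself and shares 91.6% with Rps27, so how reads were divided between them is uncertain.

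Other genes of protein synthesis were set beside them, from lists chosen with earlier results of these data known. For RAS deletion in FA the shares of all genes were 21.5% lower and 19.8% higher with ERF wild type, and 13.7% lower and 12.7% higher with ERF labelled knockout. No difference between lists was tested. Of mitochondrial ribosomal proteins, which serve a separate ribosome, it lowered 24 of 80 and raised 3 with ERF wild type, and lowered 16 and raised 4 with ERF labelled knockout, with medians of -0.12 and -0.08. Of 19 other genes whose messenger RNAs carry a TOP motif, such as elongation factors, 14 fell and none rose with ERF wild type (median -0.25), and 3 fell and 2 rose with ERF knockout (median -0.05). Eef2, which moves the ribosome along, fell in both, by 0.69 and 0.26.

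Ribosome biogenesis genes make and process ribosomal RNA. RAS deletion in FA lowered 21 of 42 and raised 2 with ERF wild type (median -0.25), and with ERF labelled knockout it lowered 1 and raised 5 (median 0.08). Their interaction of RAS and ERF called 21 of 42, all higher, with a median of 0.33, where 14.4% of all genes were called higher and 13.6% lower. The ribosomal protein median was 0.12. These counts were also run without single libraries and with fewer groups, alternatives chosen after seeing the data. Leaving out 1 library gave 11 to 26 higher in the interaction, with medians of 0.25 to 0.41. Both knockout-labelled groups gave 11 when their replicate 2 was absent. The reference group without replicate 1 gave 12, and RAS-deleted ERF wild type cells gave 13 without replicate 1 and 12 without replicate 2. The count was 12 without the chromosome 8 libraries (median 0.20) and 11 in a fit of the 4 groups alone. For RAS with ERF wild type, a fit of its own 2 groups called 11 lower in place of 21. With ERF labelled knockout, the 5 that rose were 2 without replicate 1 or 2 of the RAS-deleted group or replicate 2 of the RAS-present group, 3 without replicate 1 of the latter, and 8 in a fit of those 2 groups. Without replicate 2 of the reference group the median was 0.35 for biogenesis and -0.01 for ribosomal protein genes. Gar1, a protein of box H/ACA particles, had an interaction of 0.65 (SE 0.14, adjusted p 0.00125 by edgeR's quasi-likelihood test), and Rrp1b, a nucleolar protein, one of 0.61 (SE 0.12, edgeR adjusted p 0.000608). In the change to FA with RAS deleted, 7 biogenesis genes were lower and 2 higher with ERF wild type, where 21.4% of all genes were lower and 21.6% higher, and 5 were lower and 17 higher with ERF labelled knockout, where 27.4% and 28.3% were.

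**Figure D5:**
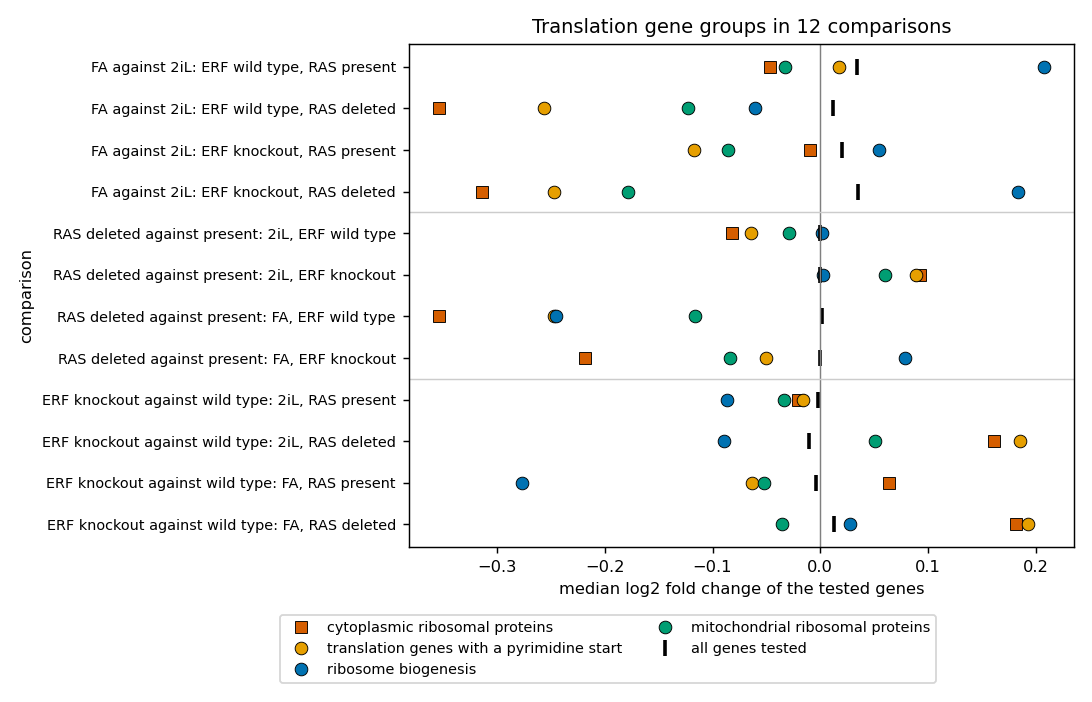
Median log2 difference in the 12 main comparisons for ribosomal protein genes, TOP translation genes, ribosome biogenesis genes, mitochondrial ribosomal protein genes and all tested genes. In RAS deletion with ERF labelled knockout in FA the ribosomal protein median is -0.22 and the biogenesis median 0.08, and with ERF wild type they are -0.35 and -0.25.

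Regulators of ribosomal protein synthesis gave no common direction. Of 19, RAS deletion in FA lowered 6 and raised 2 with ERF wild type, and lowered 2 and raised 3 with ERF labelled knockout. Myc stood at 46.4 and 35.5 CPM in the reference group in FA and at 0.833, 1.70 and 5.32 CPM with RAS deleted (-3.93, SE 0.40, adjusted p 4.17e-07 by edgeR's quasi-likelihood test). Under the ERF knockout label it went from 25.7, 20.2 and 30.8 CPM to 13.4, 13.5 and 10.4 CPM (-1.04, SE 0.33, edgeR adjusted p 0.0286). Mycn, a relative of Myc, rose by 1.82 and 1.77 in the same comparisons, and Larp1 differed by -1.05 and 0.03. In 2iL, Myc stood at 1.68 CPM or less in every library. The part of these regulators in the result was not tested.

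Genes with and without the ETS letters in their promoters, among the 67 matched and tested genes, had medians of -0.41 and -0.35 for RAS deletion in FA with ERF wild type and of -0.23 and -0.19 with ERF labelled knockout. For the ERF label with RAS deleted the medians were 0.25 and 0.11 in 2iL and 0.24 and 0.17 in FA. Other motifs split the genes as well. With and without TATAAA (7 and 60 genes) these medians were 0.29 and 0.15 in 2iL and 0.31 and 0.17 in FA. For the pyrimidine start they were 0.22 and 0.15, then 0.23 and 0.18, and for AAGATGG 0.20 and 0.17, then 0.18 and 0.18. Genes with GGGCGG or CACGTG had lower medians than those without in both media. No split was tested. Those with and without the pyrimidine start had medians of -0.37 and -0.37 for RAS deletion in FA with ERF wild type. The latter may hold genes whose messenger RNAs start a few bases away, so this split cannot tell TOP genes from others. A match of letters is a description and does not show that a factor binds there.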

How the data were processed

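For every library the authors deposited estimated counts, TPM and 2 other values, the length and effective length in bases, for each gene symbol, with the column names of Salmon, per the file headers. A deposited matrix of counts equals the rounded estimated counts (0 cells differ). Reads were handled with bcl2fastq 2.20.0, fastp 0.20.0 and Salmon on mm10, per the submitters' processing notes. The Salmon version, transcriptome release and read filters are not given in the sources used here. Salmon divides reads among similar transcripts, so counts of genes with close copies are less certain.

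Tests on these counts used edgeR 4.0.16 (R 4.3.3) with filterByExpr, TMM scaling and a robust quasi-likelihood fit of all 23 libraries with a coefficient for each of 8 groups, with Benjamini-Hochberg adjustment over 20372 genes. A gene was called at an adjusted p under 0.05, and in a second call also with a change of at least 2-fold. The standard error is the absolute log2 difference divided by the square root of F. The fit was tested on simulated data. CPM use TMM-scaled sizes; library medians use log2 of CPM plus 0.5. Reads carry no molecular identifiers, so spread between libraries was used throughout. Replicate pairs differed by a chi-square per degree of freedom of 3.04 to 44.9 over 22 pairs, so each library counted once.

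Replicate numbers come from the labels, which do not say what a number shares. In 5 comparisons with 3 same-numbered pairs every pair's deviations correlated above 0.1: the change of medium in all lines but the reference, and RAS in 2iL under both ERF labels. The block moved the count by over 1.5 times in 3 of them, given beside the result.

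The members and lists were chosen with earlier results of these data known. Named genes are the paralogs and their parents, the 3 largest called changes each way in each comparison (2 in an interaction), the 3 highest and lowest by TPM, those on chromosome 8, and at most 4 of any other list. GENCODE M21 gave gene types, positions and 31-base words; it matched all 92 symbols. Alternatives were RLE factors, total counts, no filter, no most abundant row, effective lengths, pseudogene rows added, DESeq2 1.42.0, compared groups only, the block, each library left out, and, chosen after seeing the data, protein-coding genes only and the chromosome 8 libraries left out. One more target and a few genes that the naming rule takes in are not reported here.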

Additional observations from a re-analysis of the deposited data

Results flagged for a closer look

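These results differed between groups by a test of the difference itself, edgeR's quasi-likelihood test of an interaction. The RAS effect in FA differed with the ERF label for 12 ribosomal protein genes, by 0.69 for Rps13, 0.62 for Rps12 and -1.52 for Rpl10l (log2). These 12 of 91 lie below the share of all genes, of which 14.4% were higher and 13.6% lower, and with pseudogene rows added Rps13 was 0.27 and not called (edgeR adjusted p 0.0625). The RAS effect in ERF wild type cells differed between FA and 2iL for 26, by 1.37 for Rpl10l, -0.68 for Rps12 and -0.64 for Rpl22l1, where 12.8% and 11.7% of all genes were called. The medium effect with RAS deleted differed with the ERF label for 7, by 0.71 for Rps12, 0.64 for Rps13, -0.86 for Rpl10l and -0.64 for Rpl12, and these 7 too lie below the 12.6% and 13.8% of all genes. Most reads of Rps12 and Rps13 lie in pseudogene rows, and with those added the interaction of medium and RAS was -0.43 for Rps12, and that of medium and ERF was 0.27 for Rps12 and 0.09 for Rps13, the latter not called.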

How the results depend on the processing

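Among recomputed counts of calls and levels, 217 stayed within 1.5 times (levels: within the spread between replicates) and 64 moved. The counts of calls among the 91 genes are given in the order of the report's terms. Shares of all genes called in the alternative fits are not given. With a 2-fold minimum they were 1, 0, 0 and 2 for the medium (reference line, RAS deleted, ERF knockout, both), 0 for RAS in 2iL with ERF wild type, 1 and 0 for RAS in FA (ERF wild type, knockout), 0, 0, 0 and 1 for ERF (2iL with RAS present and deleted, FA with RAS present and deleted), and 1, 1 and 0 for the interactions (RAS with ERF, medium with RAS, medium with ERF).

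A fit of the compared groups only, with its own estimate of the spread, called 13 for the medium in the reference line, 0 and 3 for RAS in 2iL (ERF wild type, knockout), 37 for RAS in FA with ERF wild type, 1 and 28 for ERF in FA (RAS present, deleted), and 4 and 13 for the first 2 interactions. With the replicate number as a block in addition, the counts were 6 for the medium in the reference line, 33 for the medium with ERF knockout, 12 and 27 for RAS in 2iL, 26 for RAS in FA with ERF wild type, 16 for ERF in FA with RAS deleted, and 4 and 11 for the first 2 interactions; the block moved no other count by over 1.5 times. Without a filter RAS in 2iL had 5 and 4, and DESeq2 gave 2 and 1. On total counts the medium had 44 with both deletions and its interaction with ERF 13. Without the chromosome 8 libraries RAS in 2iL with ERF wild type had 0, ERF in 2iL with RAS present 16, and the interactions 26, 46 and 12. Over protein-coding genes only, ERF in FA with RAS present had 1.

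Fits that each dropped a single library (leave-one-out) gave 15 to 29 calls for the medium in the reference line, 60 to 68 with RAS deleted, 12 to 19 with ERF knockout and 60 to 69 with both. For RAS it gave 0 to 1 and 0 in 2iL and 35 to 72 and 25 to 42 in FA. For ERF it gave 8 to 11, 30 to 50, 1 to 6 and 26 to 51, and for the interactions 6 to 16, 6 to 38 and 6 to 12. Rpl10 in the reference line went from -0.40 to 0.19 with its pseudogene rows added, which hold 84.3% of the reads of gene and copies. The share of TPM in the median library was 6.21% over all rows, 6.70% without the most abundant row and 17.4% over protein-coding rows. Of 1863 recomputed values of single genes, 1699 kept direction and call, 163 kept direction and lost the call, and 1 turned. Where no value above shows the cause, the cause was not tested.

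On total counts the median of all genes moved by 0.12 for the medium with RAS deleted and by 0.19 with both; the ribosomal protein medians relative to it were -0.36 and -0.35. The split into higher and lower moved to 16 and 8 for the medium with ERF knockout and to 9 and 18 in the reference line. The reference group in FA holds 2 libraries, which limits every comparison that uses it, and reads shared with pseudogene rows limit single genes more than the group.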
